A study of Mus musculus with 8 samples.

Results

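The genes described here are 40 genes of fatty acid oxidation, fat storage, fatty acid synthesis and sterol metabolism, chosen by name from a table of 45232 genes. The RNA came from CD4+ CD25+ T cells, sorted out of the visceral fat or the spleen of C57BL/6 mice that were either wild type (WT) or carrying the genotype labelled Id2 CKO, called KO here. Id2 codes for a protein that blocks E-protein transcription factors, and the series calls its sorted cells regulatory T cells (Tregs). Each of the 4 groups (WT adipose, KO adipose, WT spleen, KO spleen) had 2 libraries, numbered experiment 2 and experiment 3. The age and sex of the mice, the driver of the deletion, the deleted part of the gene, and any pooling of mice are not stated in the sources used here. At least 500 cells were sorted per library, so these are ultra-low-input libraries. Values are TPM, a share of the RNA of a library corrected for transcript length, so levels can be set side by side between genes. The number of reads behind a value is unknown, because TPM does not keep it. All 40 genes reached 1 TPM in at least 2 libraries and were tested among 13376 genes.

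Fatty acids that enter a cell are either esterified into triglyceride and stored in lipid droplets, or joined to coenzyme A, carried into mitochondria on carnitine and shortened by beta-oxidation, whose electrons pass through an electron-transfer flavoprotein to the respiratory chain. Acetyl groups can also be built back into fatty acids, under the transcription factor encoded by Srebf1, or into cholesterol, under the one encoded by Srebf2. Tregs of visceral fat are known for expressing Pparg, a nuclear receptor for fatty acids that acts on genes of lipid uptake and oxidation. The 40 genes fall into 8 roles: storage (5 genes), lipolysis (2), fatty acid activation (4), the carnitine shuttle (3), mitochondrial beta-oxidation (10), fatty acid synthesis (6), sterol synthesis (8) and sterol efflux (2).

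Promoter sequences of 5 of these genes are printed because Acadvl, Plin2 and Plin3 differed between the tissues and because Hmgcs1 and Srebf2 belong to sterol synthesis and carry the letters of a sterol element. Each run is the 250 bases before the start of the gene in RefSeq on GRCm38.p6, read 5′ to 3′ on the strand of the gene. The intervals are chr11:70015429-70015678 (minus strand), chr4:86670060-86670309 (minus), chr17:56290512-56290761 (minus), chr13:119690101-119690350 (plus) and chr15:82147019-82147268 (plus). Capitals mark matches on either strand to TCACCCC, the inner letters of the classical sterol regulatory element, to CCAAT, the box of the factor NF-Y, and to AGGTCA, the half-site of many nuclear receptors.
Acadvl: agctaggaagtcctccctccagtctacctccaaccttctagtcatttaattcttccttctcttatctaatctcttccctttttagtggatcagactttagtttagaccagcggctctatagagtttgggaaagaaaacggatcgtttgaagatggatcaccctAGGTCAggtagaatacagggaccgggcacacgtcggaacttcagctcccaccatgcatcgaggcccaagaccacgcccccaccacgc
Plin2: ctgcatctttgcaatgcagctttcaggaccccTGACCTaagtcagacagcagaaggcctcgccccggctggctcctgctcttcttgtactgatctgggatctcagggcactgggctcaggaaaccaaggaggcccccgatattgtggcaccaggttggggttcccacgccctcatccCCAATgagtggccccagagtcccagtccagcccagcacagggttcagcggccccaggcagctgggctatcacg
Plin3: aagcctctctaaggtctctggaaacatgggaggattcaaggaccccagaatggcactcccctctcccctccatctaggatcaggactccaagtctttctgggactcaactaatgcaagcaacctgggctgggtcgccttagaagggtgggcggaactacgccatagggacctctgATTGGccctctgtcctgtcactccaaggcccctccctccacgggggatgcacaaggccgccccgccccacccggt
Hmgcs1: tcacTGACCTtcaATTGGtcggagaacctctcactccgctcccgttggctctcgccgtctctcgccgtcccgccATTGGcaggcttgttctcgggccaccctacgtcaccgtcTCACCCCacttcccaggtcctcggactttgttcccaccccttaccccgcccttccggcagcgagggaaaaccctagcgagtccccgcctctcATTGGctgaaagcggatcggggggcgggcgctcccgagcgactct
Srebf2: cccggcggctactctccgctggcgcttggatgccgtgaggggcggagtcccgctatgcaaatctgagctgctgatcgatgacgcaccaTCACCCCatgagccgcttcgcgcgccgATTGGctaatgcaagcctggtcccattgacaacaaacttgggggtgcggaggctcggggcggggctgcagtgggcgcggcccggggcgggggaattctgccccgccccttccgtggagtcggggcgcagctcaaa
Of the 40 genes, 30 had a promoter in the RefSeq table. A gene was counted if any of its listed starts held the letters, whereas the shares of all promoters count each start. Acsl1 and Lipe had 2 starts and Srebf1 had 3, which favours a match in these genes. TCACCCC was present in 4 of these 30 (Acsl1, Hmgcs1, Pnpla2 and Srebf2), against 4.31% of the 32851 promoters in the table. CCAAT was present in 16 of 30, against 33.8% of all promoters, and in each of the 5 sterol synthesis genes found in the table (Hmgcs1, Idi1, Insig1, Lss and Srebf2). AGGTCA, a motif added after the values had been seen, was present in 8 of 30, against 14.0% of all promoters, and among the 8 were Acadvl, Plin2 and Cpt1a. AGGTCA repeated with 1 base between the copies was in 0 of 30, against 0.0335% of all promoters. The E-box CAGGTG was in 4 of 30 (17.2% of all promoters) and the E-box CACGTG in 3 of 30 (6.02%). Among the 44 matches to the 5 motifs, 2 overlapped a match to another motif, and none of these lay in the printed sequences. These matches describe letters and do not show that a factor binds there.

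Id2 itself was at 2249 and 3679 TPM in the WT adipose libraries (experiment 2, then experiment 3, an order kept below) and at 1499 and 1298 in the KO adipose libraries. In spleen the Id2 level was 274 and 346 TPM with the WT genotype and 72.1 and 265 with KO. The KO libraries were thus below the WT libraries in each tissue, and Id2 RNA was still present in them. Foxp3, the factor that defines Tregs, had 7.40 TPM in KO adipose 2 and 8.27 in KO spleen 2, against 93.5 to 266 in the other 6 libraries. Cd3e was between 67.3 and 847 TPM and Cd4 between 58.4 and 206 in the 8 libraries. The 9 T cell markers summed to 3192 TPM in KO adipose 3 and to 6311 to 8869 in the other libraries. Markers of other cells of fat were uneven. The 8 adipocyte markers summed to 6.50 and 2170 TPM in the WT adipose libraries and to 65.4 and 14723 in the KO adipose libraries, against 1.03 to 5.88 in the 4 spleen libraries. The 10 macrophage markers summed to 10993 TPM in KO adipose 3, 9.41 to 21.1 in the other adipose libraries and 13.3 to 613 in spleen. The 8 fibroblast and mesothelium markers summed to 730 TPM in KO adipose 2 and 3481 in KO adipose 3, and to at most 4.76 elsewhere. The 4 B cell markers summed to 12.1 to 56.1 TPM in adipose tissue and 79.9 to 429 in spleen. The 4 endothelial markers summed to 13.3 to 589 TPM in adipose tissue, highest in KO adipose 3, and to 7.22 to 29.4 in spleen. In such bulk samples, fewer cells of a type and less RNA per cell cannot be told apart, and the handling of each tissue cannot be told apart from the tissue.

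Averaged over both genotypes, Plin2, Plin3, Acadvl and Acaa2 were higher in adipose tissue, and none of the 40 genes was lower, by limma's moderated test on log2(TPM + 1) with Benjamini-Hochberg adjustment over all genes tested and a threshold of 0.05. These 4 of 40 stand beside 3.06% of all genes tested (2.33% higher, 0.725% lower). With no filter on low values, which brought 23448 genes into the test, none of the 4 was called. At an unadjusted p under 0.05, 16 of the 40 were higher and 0 lower, beside 16.4% and 6.14% of all genes. The fitted difference was above 0 for 38 of 40 genes (63.8% of all genes), and for 33 of 40 after quantile normalization (47.1%). The median difference over the 40 was 0.67 on the log2 scale against 0.24 over all genes, and after quantile normalization 0.24 against -0.05. In 14 of 40 genes the 4 adipose libraries all lay above the 4 spleen libraries (11.6% of all genes), and in 1, Scd2, all below (4.66%). Within each genotype alone, where 2 libraries met 2, no member passed by limma. In WT, 11 of 40 were higher and 0 lower at an unadjusted p under 0.05 (9.92% and 3.1% of all genes), with 0.164% of all genes called (0.135% higher, 0.0299% lower). Fitted differences were above 0 in 35 of 40 (65.5% of all genes). The adipose libraries lay wholly above spleen in 23 (37.8%) and wholly below in 2, Scd2 and Abca1 (15.1%). In KO, 8 were higher and 0 lower (8.71% and 4.15%), with 1.08% of all genes called (0.927% higher, 0.15% lower). Here 36 of 40 were above 0 (58.5%), 17 lay wholly above (22.1%) and 1, Scd2, wholly below (14.6%). After quantile normalization 31 of 40 were above 0 in WT (49.8% of all genes) and 29 in KO (44.2%). In KO the median over the 40 was 0.72 against 0.16 over all genes. It was 0.29 against -0.0045 without KO adipose 3, with 27 of 40 above 0 (49.6% of all genes). Without KO spleen 2 it was 0.33 against -0.05, with 30 of 40 above 0 (46.7%).

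**Figure D1:**
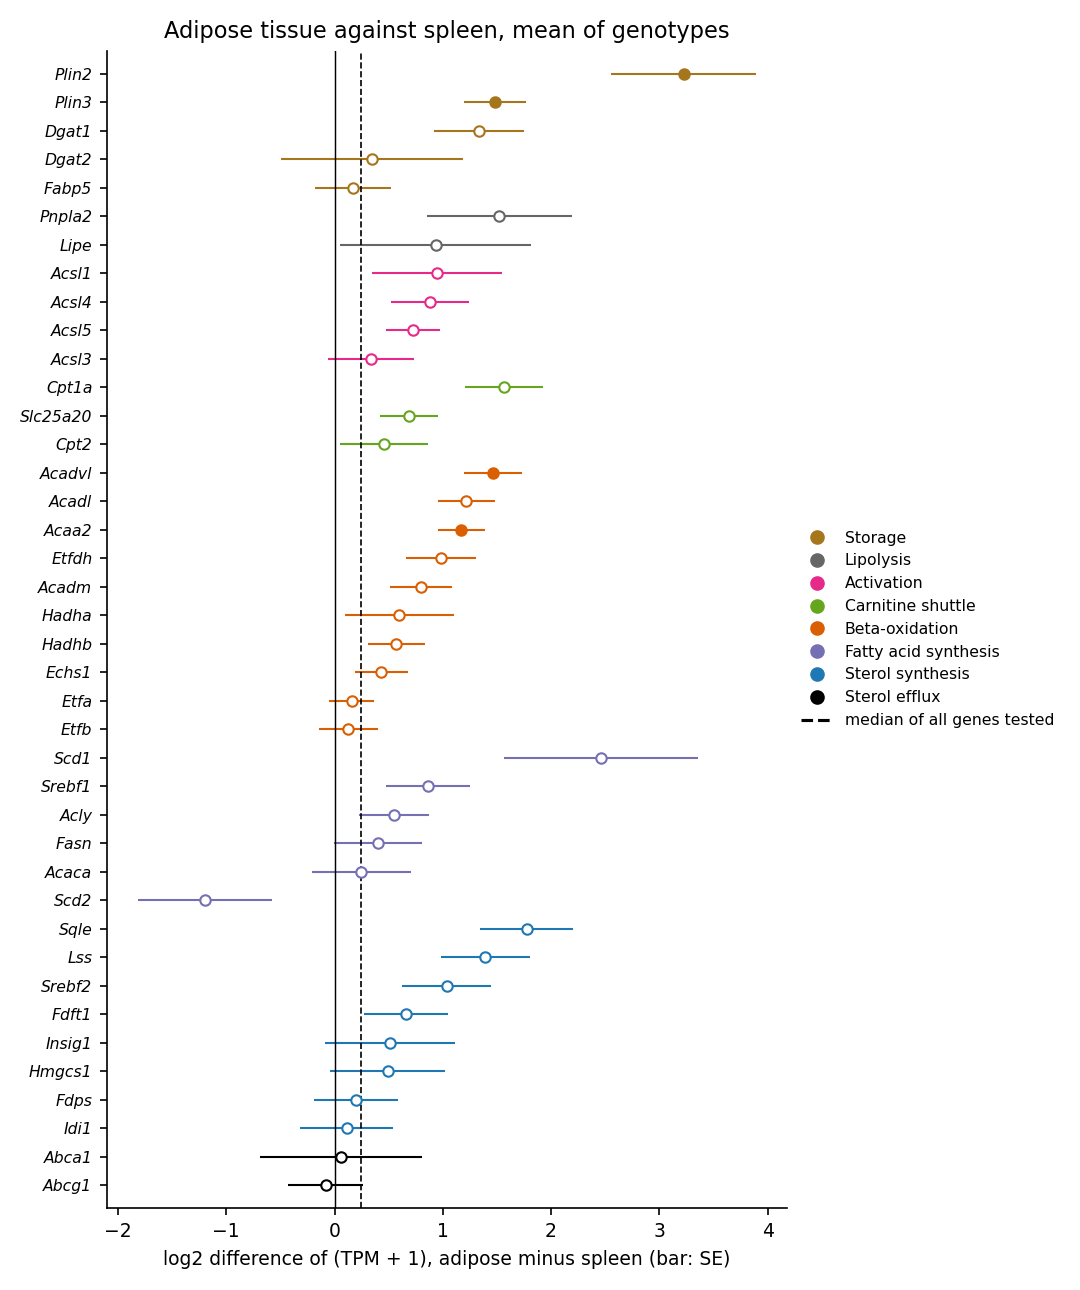
Difference between adipose tissue and spleen, averaged over genotypes, for each of the 40 genes grouped by role (log2 of TPM + 1, bars are limma's standard error). Filled points passed an adjusted p of 0.05 and the dashed line is the median of all genes tested, 0.24. The points of 38 genes lie above 0 (63.8% of all genes), and Scd2 lies farthest below. After quantile normalization 33 lie above 0 (47.1% of all genes).

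Averaged over genotypes, storage genes had the largest median difference of the 8 roles, 1.34 on the log2 scale. In WT alone the median was larger for the 2 lipolysis genes, at 1.32 against 1.10 for storage. Lipolysis also exceeded storage in WT of experiment 2 (1.54 against 1.12) and experiment 3 (1.09 against 0.85). In KO it did so in experiment 3 (1.88 against 1.26) but not in experiment 2 (0.41 against 1.73). Plin2, which codes for perilipin 2, a coat protein of lipid droplets, was at 47.8 and 467 TPM in the WT adipose libraries, 77.7 and 219 in the KO adipose libraries, 18.6 and 13.5 in the WT spleen libraries and 10.8 and 14.4 in the KO spleen libraries. The lowest adipose library was thus above the highest spleen library, and both adipose libraries of experiment 3 stood well above those of experiment 2. The difference for Plin2 was 3.22 on the log2 scale (SE 0.67, 9.34-fold, adjusted p = 0.0460 by limma, higher in 4 of 4 pairs of the same genotype and experiment). Here and below, where the tissues do not overlap, 4 of 4 pairs follows from that and adds nothing. Without both adipose libraries of experiment 3, which held the most adipocyte marker RNA, the difference for Plin2 was 2.04. The part of adipocyte RNA in these values was not tested. The adjusted p of Plin2 by limma was 0.0557 on leaving out WT adipose 3, 0.0528 on dropping KO adipose 3, 0.153 on dropping WT spleen 2, 0.157 on dropping WT spleen 3, 0.176 on dropping KO spleen 2, 0.0670 on dropping KO spleen 3 and 0.0657 on dropping both KO libraries of experiment 2. It was also 0.0508 with a pseudocount of 0.1, 0.0665 with a pseudocount of 5 and 0.0733 after quantile normalization.

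Plin3, which codes for perilipin 3, a droplet coat protein also found free in the cytosol, was at 59.9 and 98.0 TPM in the WT adipose libraries, 59.5 and 44.8 in the KO adipose libraries, 27.0 and 19.4 in the WT spleen libraries and 17.3 and 25.2 in the KO spleen libraries. The tissues did not overlap, and KO adipose 3, the library richest in adipocyte markers, was the lowest of the 4 adipose libraries. The part of other cells in this value was not tested. The difference for Plin3 was 1.48 on the log2 scale (SE 0.29, 2.80-fold, adjusted p = 0.0386 by limma, 4 of 4 pairs). Its adjusted p was 0.0505 on leaving out WT adipose 2, 0.134 on dropping WT adipose 3, 0.134 on dropping WT spleen 2, 0.158 on dropping WT spleen 3, 0.138 on dropping KO spleen 2, 0.0804 on dropping both adipose libraries of experiment 3, 0.0735 after quantile normalization and 0.0878 on dropping both KO libraries of experiment 2. Dgat1, which codes for an enzyme of the last step of triglyceride synthesis, was at 36.7 and 41.5 TPM in the WT adipose libraries, 38.7 and 48.4 in the KO adipose libraries, 13.8 and 22.5 in the WT spleen libraries and 6.99 and 26.8 in the KO spleen libraries. Its 4 adipose libraries also lay above all spleen libraries, by 1.34 on the log2 scale (SE 0.42, adjusted p = 0.119, and 0.0382 by limma without KO spleen 3).

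The other storage genes overlapped between tissues. Dgat2, coding for the second enzyme of that step, was at 3.76 and 11.0 TPM in the WT adipose libraries, 1.21 and 18.9 in the KO adipose libraries, 3.93 and 12.8 in the WT spleen libraries and 0.691 and 7.33 in the KO spleen libraries. Its higher value lay in experiment 3 in all 4 groups. Fabp5, which codes for a fatty acid binding protein, was between 34.8 and 64.9 TPM in 7 libraries and at 119 in KO adipose 3. Near-identical copies of Fabp5 exist, so its share of reads is uncertain. The median difference of the 5 storage genes was 1.34 on the log2 scale, with 5 of 5 above 0, although Fabp5 was below 0 after quantile normalization (-0.19).

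The 2 lipolysis genes had a median difference of 1.23 on the log2 scale, with 2 of 2 above 0, but each overlapped between the tissues. Pnpla2, which codes for adipose triglyceride lipase, was at 43.6 and 59.2 TPM in the WT adipose libraries, 15.4 and 99.3 in the KO adipose libraries, 9.23 and 23.0 in the WT spleen libraries and 6.97 and 32.1 in the KO spleen libraries. It was higher in adipose tissue in 4 of 4 pairs, but KO adipose 2 lay within the spleen range and the adjusted p was 0.223. Lipe, which codes for hormone-sensitive lipase, was higher in adipose tissue in 3 of 4 pairs. Its level was at most 6.14 TPM in 7 libraries and 15.3 in KO adipose 3. That library also held the highest adipocyte sum, and the part of adipocyte RNA in the Lipe value was not tested.

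**Figure D2:**
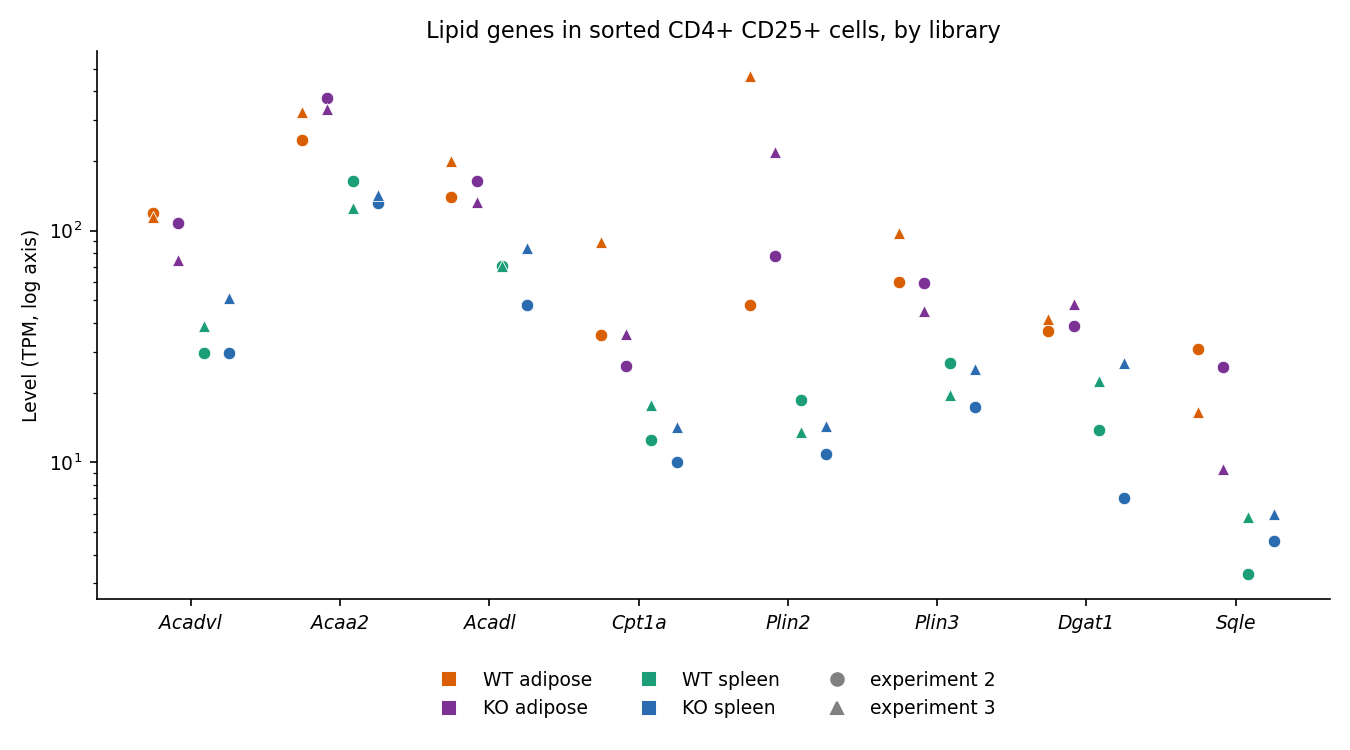
Level of 8 genes in each of the 8 libraries (TPM, log axis; circles are experiment 2, triangles experiment 3). For Plin2, Plin3, Dgat1, Cpt1a, Acadl, Acadvl, Acaa2 and Sqle, the lowest adipose library lies above the highest spleen library.

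Among the long-chain acyl-CoA synthetases, which activate fatty acids for either fate, Acsl5 was the most abundant. Acsl5 was at 116 and 114 TPM in the WT adipose libraries, 85.3 and 85.1 in the KO adipose libraries, 47.8 and 66.3 in the WT spleen libraries and 49.5 and 79.7 in the KO spleen libraries. The libraries of a group were close together in adipose tissue, and the tissues did not overlap, although KO spleen 3 came near the KO adipose libraries. The difference was 0.73 on the log2 scale (SE 0.25, adjusted p = 0.140). Acsl4, whose enzyme prefers arachidonic acid, was at 39.9 and 23.8 TPM in the WT adipose libraries, 10.9 and 13.0 in the KO adipose libraries, 7.58 and 12.6 in the WT spleen libraries and 7.38 and 14.1 in the KO spleen libraries. The 2 WT adipose libraries stood above the other 6, and the KO adipose libraries lay within the spleen range. Acsl3, whose product sits on growing droplets, was between 1.20 and 6.05 TPM, and Acsl1 between 0.569 and 7.49 TPM, both with overlap between tissues.

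The carnitine shuttle moves activated fatty acids into mitochondria. Cpt1a, its outer-membrane and rate-limiting enzyme, was at 35.4 and 89.5 TPM in the WT adipose libraries, 26.0 and 35.7 in the KO adipose libraries, 12.5 and 17.6 in the WT spleen libraries and 10.1 and 14.1 in the KO spleen libraries. All adipose libraries were above all spleen libraries, with WT adipose 3 the highest by far. The difference was 1.57 on the log2 scale (SE 0.36, adjusted p = 0.0606 by limma, 4 of 4 pairs). The adjusted p of Cpt1a was 0.0239 with the replicate number as a block, 0.0487 with a filter at 5 TPM, 0.0407 without WT adipose 2 and 0.0363 without KO adipose 2. The last of these calls ended when the tested genes were held at those of all 8 libraries. Slc25a20, the carrier that exchanges acylcarnitine for carnitine, was at 33.5 to 50.5 TPM in adipose tissue and 18.8 to 27.8 in spleen, without overlap (0.69 on the log2 scale, SE 0.27, adjusted p = 0.186). Cpt2, the inner-membrane enzyme, overlapped between tissues, at 10.3 to 22.2 TPM in adipose tissue and 6.08 to 19.3 in spleen.

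Beta-oxidation opens with acyl-CoA dehydrogenases of different chain lengths. Acadvl, the very-long-chain enzyme, was at 119 and 115 TPM in the WT adipose libraries, 108 and 74.8 in the KO adipose libraries, 29.8 and 39.0 in the WT spleen libraries and 29.7 and 51.4 in the KO spleen libraries. Its adipose level was lowest in KO adipose 3. That library held the highest adipocyte and macrophage sums and the lowest T cell marker sum (3192 TPM). The part of other cells in these values was not tested. The difference for Acadvl was 1.47 on the log2 scale (SE 0.27, 2.76-fold, adjusted p = 0.0338 by limma, 4 of 4 pairs), and 1.61 without both adipose libraries of experiment 3 (adjusted p = 0.0462). Its adjusted p by limma was 0.0758 on leaving out WT adipose 2, 0.108 on dropping WT adipose 3, 0.154 on dropping WT spleen 2, 0.115 on dropping WT spleen 3, 0.105 on dropping KO spleen 2 and 0.0641 on dropping both KO libraries of experiment 2. Acadl, the long-chain enzyme, was at 139.7 and 201 TPM in the WT adipose libraries, 163 and 132 in the KO adipose libraries, 70.7 and 70.2 in the WT spleen libraries and 47.6 and 84.5 in the KO spleen libraries. Its tissues did not overlap, and its difference of 1.22 on the log2 scale (SE 0.26, 4 of 4 pairs) had an adjusted p of 0.0508 by limma, of 0.0387 with the replicate number as a block, of 0.0450 with a filter at 5 TPM and of 0.0373 without KO spleen 3. Acadm, the medium-chain enzyme, was lower in level, at 26.0 to 36.0 TPM in adipose tissue and 12.8 to 20.1 in spleen, again without overlap (0.80 on the log2 scale, adjusted p = 0.153).

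The middle and last steps of the cycle ran from clear separation to none. Acaa2, the mitochondrial 3-ketoacyl-CoA thiolase that releases acetyl-CoA, was at 246 and 325 TPM in the WT adipose libraries, 375 and 334 in the KO adipose libraries, 164 and 126 in the WT spleen libraries and 131 and 142 in the KO spleen libraries. Its libraries were tight within each tissue, and the tissues did not overlap. The difference for Acaa2 was 1.17 on the log2 scale (SE 0.21, 2.25-fold, adjusted p = 0.0335 by limma, 4 of 4 pairs). Its adjusted p was 0.0568 on leaving out WT adipose 2, 0.128 on dropping WT adipose 3, 0.112 on dropping WT spleen 2, 0.142 on dropping WT spleen 3, 0.111 on dropping KO spleen 2, 0.0979 on dropping both adipose libraries of experiment 3 and 0.0686 on dropping both KO libraries of experiment 2. Echs1, the short-chain enoyl-CoA hydratase, was at 26.2 to 31.8 TPM in adipose tissue and 19.5 to 22.5 in spleen, a small but non-overlapping difference (0.43 on the log2 scale, adjusted p = 0.329).

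Hadha and Hadhb code for the subunits of the mitochondrial trifunctional protein, and RefSeq places their starts head to head on chromosome 5 of GRCm38.p6, with 272 bases between them. Hadhb was at 41.4 to 104 TPM and Hadha at 7.88 to 37.0 TPM. Hadha was at 7.88 TPM in KO adipose 2 and 33.6 in KO adipose 3, so its KO adipose libraries spanned most of the range of the gene. Neither gene separated the tissues completely.

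The electron carriers differed among themselves too. Etfdh, the oxidoreductase that hands electrons to ubiquinone, was at 18.3 to 23.3 TPM in adipose tissue and 7.30 to 13.9 in spleen, without overlap (0.98 on the log2 scale, SE 0.32, adjusted p = 0.134). Etfa and Etfb, which code for the subunits of the electron-transfer flavoprotein itself, were abundant in both tissues, at 116 to 198 and 274 to 507 TPM. Their differences were 0.16 (SE 0.21) and 0.13 (SE 0.27) on the log2 scale. Over the 10 beta-oxidation genes the median difference was 0.70 on the log2 scale, and 10 of 10 were above 0, although Etfa was below 0 after quantile normalization (-0.03). In 6 of 10 the adipose libraries lay wholly above spleen (Acadl, Acadm, Acadvl, Acaa2, Echs1 and Etfdh), beside 11.6% of all genes.

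Fatty acid synthesis genes were mostly low, apart from Acly. Acly, the enzyme that makes cytosolic acetyl-CoA from citrate, was at 84.8 and 62.1 TPM in the WT adipose libraries, 32.9 and 54.9 in the KO adipose libraries, 30.6 and 49.5 in the WT spleen libraries and 27.2 and 48.7 in the KO spleen libraries. The WT adipose libraries were the 2 highest, and the KO adipose libraries lay close to spleen. Fasn, the fatty acid synthase, was at 4.89 to 13.3 TPM, Acaca, the acetyl-CoA carboxylase, at 0.426 to 2.99 TPM and Srebf1 at 5.27 to 31.4 TPM, all with overlap between tissues.

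The stearoyl-CoA desaturases had averaged differences of opposite sign, but neither passed the threshold. In WT of experiment 2 both were below 0 (Scd1 -0.07, Scd2 -0.30). Scd1 was at 3.07 and 22.9 TPM in the WT adipose libraries, 4.72 and 46.4 in the KO adipose libraries, 3.28 and 0 in the WT spleen libraries and 3.38 and 0.538 in the KO spleen libraries. In experiment 2 the tissues were nearly level for Scd1 (adipose minus spleen -0.07 in WT and 0.38 in KO on the log2 scale), and in experiment 3 they were far apart (4.58 and 4.95). The adipose libraries high in Scd1 were those with adipocyte sums of 2170 and 14723 TPM, and the part of adipocyte RNA in these values was not tested. Scd2 was at 11.1 and 0.727 TPM in the WT adipose libraries, 4.52 and 11.9 in the KO adipose libraries, 13.9 and 12.2 in the WT spleen libraries and 13.5 and 13.5 in the KO spleen libraries. Its spleen libraries were tight and all above the adipose libraries, with a difference of -1.20 on the log2 scale (SE 0.62, adjusted p = 0.289). The adipose values of 11.1 and 11.9 TPM came close to the lowest spleen value, 12.2. With 1 library left out the Scd2 difference ranged from -1.90 to -0.49. Scd1 and Scd2 are close in sequence, and how their shared reads were assigned is not stated.

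Among the sterol synthesis genes, Sqle and Lss separated the tissues. Sqle, the squalene epoxidase and a rate-controlling step after squalene, was at 30.9 and 16.5 TPM in the WT adipose libraries, 25.9 and 9.35 in the KO adipose libraries, 3.29 and 5.79 in the WT spleen libraries and 4.60 and 5.96 in the KO spleen libraries. The tissues did not overlap, and the adipose libraries of experiment 2 were the highest. The difference for Sqle was 1.77 on the log2 scale (SE 0.43, adjusted p = 0.0699 by limma, 4 of 4 pairs). Its adjusted p was 0.0296 on leaving out KO adipose 3 and 0.0240 on dropping both adipose libraries of experiment 3, where the difference was 2.33. Without KO adipose 3 but with the tested genes held at those of all 8 libraries, the adjusted p of Sqle was 0.0612. Lss, the next enzyme, which closes the sterol rings, was low but also separated, at 4.20 to 6.38 TPM in adipose tissue and 0.414 to 2.04 in spleen (1.39 on the log2 scale, SE 0.41, adjusted p = 0.108).

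The other enzymes of the pathway overlapped between the tissues. Hmgcs1, which makes HMG-CoA, was at 55.1 and 20.6 TPM in the WT adipose libraries, 7.80 and 23.1 in the KO adipose libraries, 9.07 and 22.4 in the WT spleen libraries and 9.85 and 24.8 in the KO spleen libraries. WT adipose 2 thus stood alone, and the other 3 libraries of experiment 2 were all below the 4 of experiment 3. Idi1, the isopentenyl-diphosphate isomerase, was at 61.8 and 18.2 TPM in the WT adipose libraries, 45.8 and 20.0 in the KO adipose libraries, 34.9 and 28.4 in the WT spleen libraries and 27.6 and 27.8 in the KO spleen libraries. Both adipose libraries of experiment 2 were above all spleen libraries, and both of experiment 3 were below them. Fdft1, the squalene synthase, and Fdps, the farnesyl diphosphate synthase, were likewise highest in the adipose libraries of experiment 2, at 60.5 and 85.7 TPM for Fdft1 and 123 and 124 TPM for Fdps.

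The regulators of the pathway also overlapped between the tissues. Srebf2, the transcription factor of sterol synthesis, was at 39.5 and 80.3 TPM in the WT adipose libraries, 14.6 and 30.7 in the KO adipose libraries, 13.5 and 24.4 in the WT spleen libraries and 10.4 and 21.0 in the KO spleen libraries. Experiment 3 was higher in all 4 groups, opposite to Sqle in adipose tissue. With the replicate number as a block Srebf2 joined the genes called higher in adipose tissue (7 of 40, beside 6.62% of all genes: Acadl, Acadvl, Acaa2, Cpt1a, Plin2, Plin3 and Srebf2). Insig1, a sterol-sensing protein that holds back SREBP processing, overlapped between the tissues, at 7.29 to 16.7 TPM in adipose tissue and 2.30 to 16.1 in spleen. Over the 8 sterol synthesis genes the median difference was 0.58 on the log2 scale and 8 of 8 were above 0, although Idi1 (-0.35) and Fdps (-0.10) were below 0 after quantile normalization. In 2 of 8, Sqle and Lss, the adipose libraries lay wholly above spleen, beside 11.6% of all genes.

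Sterol efflux showed no shared direction. Abcg1, a transporter that passes cholesterol to lipoproteins, was at 23.0 to 43.1 TPM in adipose tissue and 15.8 to 45.1 in spleen. Abca1, the transporter that loads apolipoprotein A-I, was listed at 0 in KO adipose 2 and was at most 2.21 TPM in 6 other libraries. Its one high value was 12.0 TPM in KO adipose 3, where the macrophage markers summed to 10993 TPM. With KO adipose 2 left out, Abca1 was called between the tissues in KO, a contrast in which KO adipose 3 was then the lone KO adipose library, and the part of macrophage RNA was not tested.

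**Figure D3:**
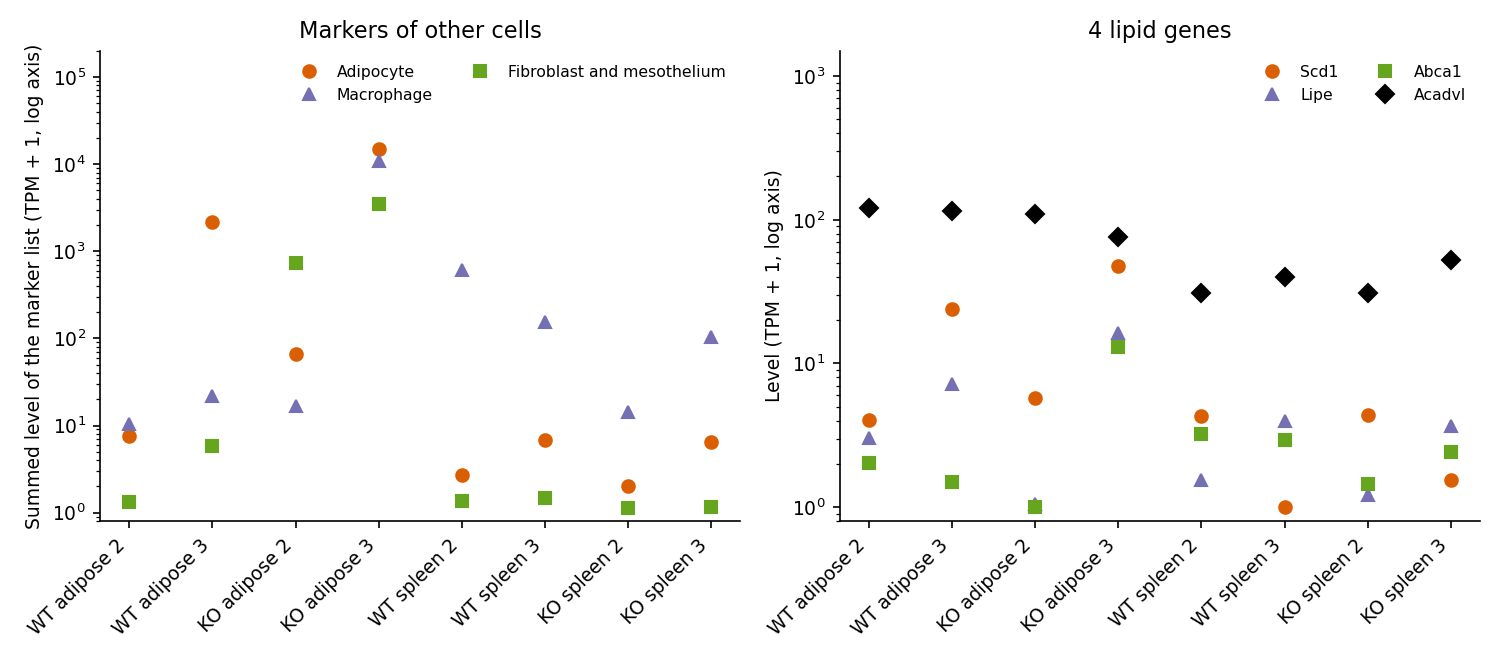
Summed adipocyte, macrophage and fibroblast marker levels (left) and Scd1, Lipe, Abca1 and Acadvl (right) in each library (TPM + 1, log axis). Scd1 is highest in the adipose libraries of experiment 3, Lipe and Abca1 peak in KO adipose 3, and Acadvl is lowest there among the adipose libraries (74.8 TPM).

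Set side by side within each genotype and experiment, oxidation, storage and sterol genes did not keep the same order. The median adipose-minus-spleen difference of the 10 beta-oxidation genes was 0.56 in WT and 1.26 in KO in experiment 2, and 0.87 and 0.55 in experiment 3 (log2 scale). Of these 10, 9, 8, 10 and 10 were higher in adipose tissue in WT and KO of experiment 2 and WT and KO of experiment 3. The storage median was 1.12 and 1.73 in experiment 2 and 0.85 and 1.26 in experiment 3. The sterol median was 1.40 and 0.94 in experiment 2, with 8 and 7 of 8 genes higher in adipose tissue, and 0.23 and -0.03 in experiment 3, with 5 and 4 of 8 higher. Over all genes tested the medians were 0.37 and 0.17 in experiment 2 and 0.21 and 0.03 in experiment 3. Sterol genes thus stood above the median of all genes in experiment 2 and near it in experiment 3, whereas beta-oxidation and storage genes stood above it in all 4 pairs. From experiment 2 to experiment 3 the sterol median moved by -0.90 in the WT adipose libraries and -0.49 in the KO adipose libraries, but by 0.74 in the WT spleen libraries and 0.37 in the KO spleen libraries. These differences between experiments were not tested, since each group holds 1 library per experiment. The adipocyte sums of the adipose libraries were 6.50 and 65.4 TPM in experiment 2 and 2170 and 14723 in experiment 3, and their part in the sterol values was not tested. Of the 40 genes, 21 were higher in adipose tissue in 4 of 4 pairs, beside 23.6% of all genes.

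**Figure D4:**
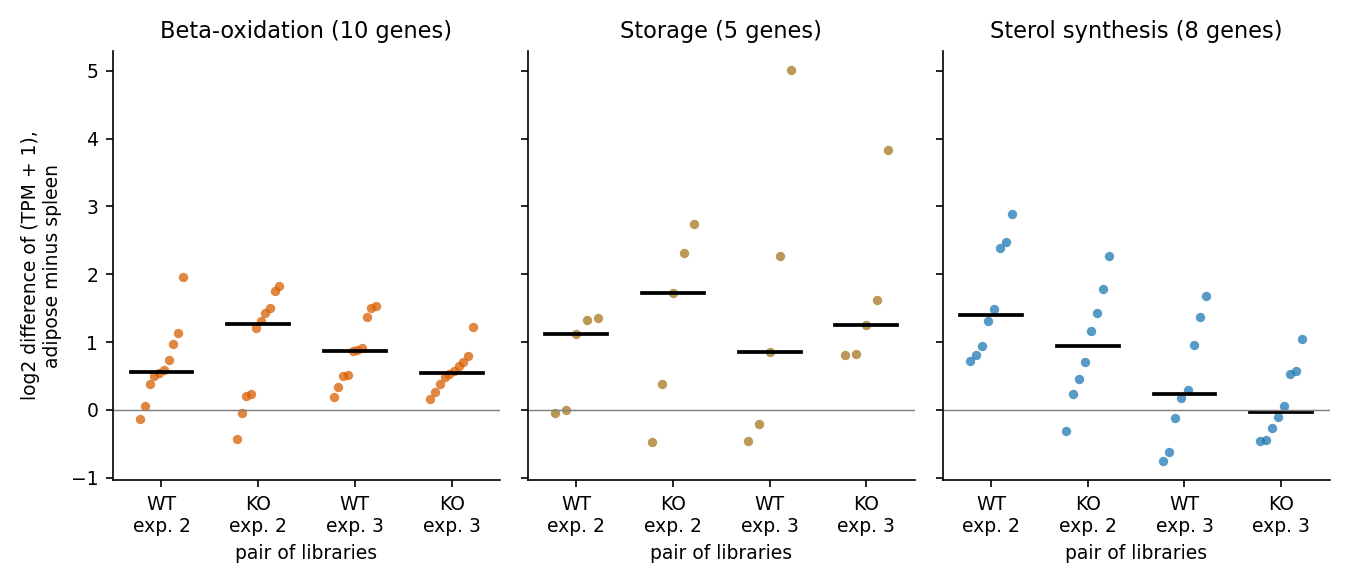
Adipose minus spleen difference (log2 of TPM + 1) within each genotype and experiment, for beta-oxidation, storage and sterol synthesis genes; each point is a gene and each bar the median of its class. The sterol medians are 1.40 and 0.94 in experiment 2 and 0.23 and -0.03 in experiment 3, while the beta-oxidation medians lie between 0.55 and 1.26.

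Between KO and WT none of these genes passed the threshold in either tissue. In adipose tissue 0 of 40 genes differed between KO and WT by limma, beside 0.284% of all genes (0.277% higher, 0.00748% lower), and at an unadjusted p under 0.05 there were 0 higher and 2 lower (3.1% and 3.87% of all genes). These 2 were Acsl4 and Srebf2. Acsl4 was at 39.9 and 23.8 TPM in WT and 10.9 and 13.0 in the KO adipose libraries, a difference of -1.30 on the log2 scale (SE 0.51, adjusted p = 0.633). Srebf2 was at 39.5 and 80.3 TPM in WT and 14.6 and 30.7 in KO, a difference of -1.37 (SE 0.58, adjusted p = 0.698). Their libraries did not overlap between genotypes. The same held for 12 of 40 genes lower in KO and 3 higher, beside 27.5% and 7.66% of all genes, so the share of the 40 lay near that of all genes. The 3 that were higher were Fabp5 (1.07 on the log2 scale), Etfa (0.37) and Acaa2 (0.32). The fitted difference was above 0 for 12 of 40 (31.9% of all genes), and the median over the 40 was -0.19 against -0.27 over all genes. After quantile normalization 19 of 40 were above 0 (43.7% of all genes) and the median was -0.02 against -0.09, with Dgat2, Lipe, Slc25a20, Echs1, Etfdh, Idi1 and Fdft1 turning from below to above 0. With the replicate number as a block, 4 of 40 were lower at an unadjusted p under 0.05 (Acsl4, Cpt1a, Srebf1 and Srebf2), beside 8.18% of all genes.

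By role, the KO minus WT medians in adipose tissue were -0.74 for fatty acid activation, -0.74 for the carnitine shuttle, -0.32 for fatty acid synthesis, -0.26 for lipolysis, -0.24 for sterol synthesis, -0.19 for storage, 0.03 for beta-oxidation and 0.23 for sterol efflux (log2 scale). Cpt1a differed by -0.87 (SE 0.51, adjusted p = 0.751), with 35.4 and 89.5 TPM in WT and 26.0 and 35.7 in KO, values that overlapped. Cpt2 was at 22.2 and 18.1 TPM in WT and 13.1 and 10.3 in the KO adipose libraries, without overlap (-0.74, adjusted p = 0.788). The KO adipose libraries held 730 and 3481 TPM of fibroblast and mesothelium markers against 0.328 and 4.76 in WT, and Foxp3 was at 7.40 TPM in KO adipose 2. The part of these in the genotype differences was not tested. Without both KO libraries of experiment 2, the median over the 40 was -0.04 against -0.21 over all genes. Of the 40 genes, 19 were above 0 (37.9% of all genes), against 12 with all libraries (31.9%). KO adipose tissue was then represented by KO adipose 3 alone, with its 14723 TPM of adipocyte and 10993 TPM of macrophage markers.

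In spleen 0 of 40 genes differed between KO and WT by limma, beside 0% of all genes, and 0 of 40 had an unadjusted p under 0.05 in either direction (0.232% higher and 0.247% lower among all genes). The fit gave each gene 1 spread shared by the 4 groups. Across genes, the log2 difference between the 2 libraries of a group had an SD of 0.70 in WT spleen and 0.84 in KO spleen. It was 1.07 in WT adipose and 1.49 in KO adipose. The p-values may thus be too large within spleen and too small within adipose tissue. With only the spleen groups fitted, 0 of 40 genes were called (0.017% of all genes). At an unadjusted p under 0.05 there were again 0 of 40 (0.535% and 1.36%). The groups did not overlap for 1 gene that was higher in KO, Etfa, at 148 and 116 TPM in WT and 168 and 154 in KO (5.93% of all genes). They did not overlap for 3 that were lower, Acsl3, Idi1 and Abca1 (13.9%). The median over the 40 was -0.11 against -0.12 over all genes, with 17 of 40 above 0 (35.3% of all genes), and 0.15 against 0.08 with 28 of 40 above 0 without both KO libraries of experiment 2. The same 0.15 and 28 of 40 came from leaving out KO spleen 2 alone. The median was also above 0 without WT spleen 3 (0.11 against 0.01 over all genes, 23 of 40 above 0) and after quantile normalization (0.05 against 0.0024, 22 of 40), so no direction of the 40 genes in spleen held under these settings.

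**Figure D5:**
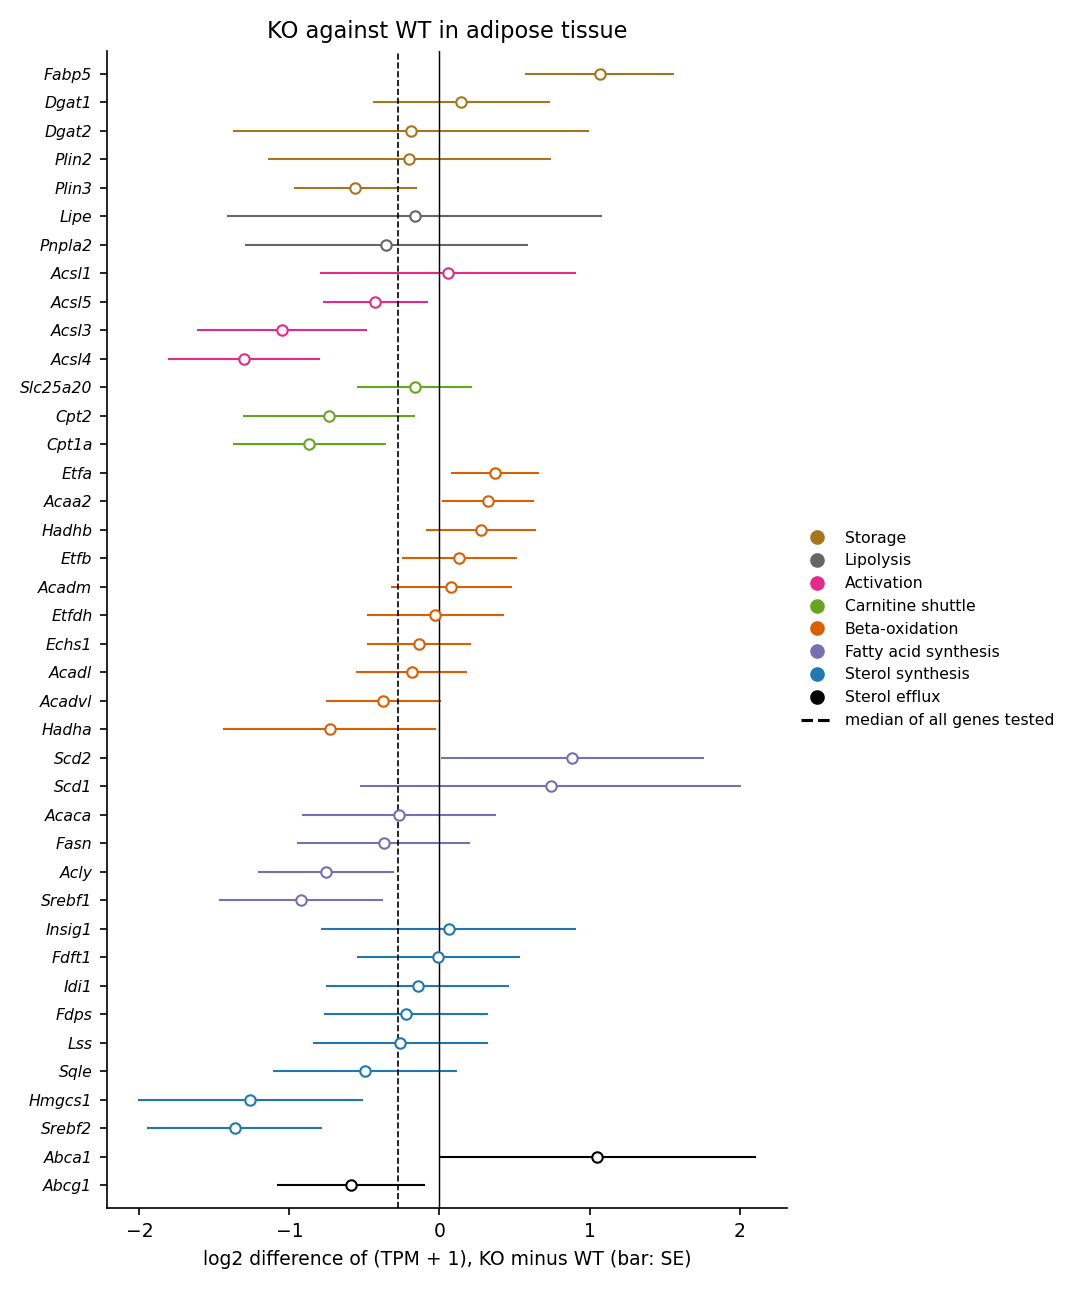
KO minus WT difference for each of the 40 genes in adipose tissue (log2 of TPM + 1, bars are limma's standard error). No point is filled, since no gene passed an adjusted p of 0.05, and the dashed line marks the median of all genes tested, -0.27.

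Whether the difference between KO and WT varied between the tissues was tested by the genotype by tissue interaction. None of the 40 genes passed by limma, beside 0.0299% of all genes (0.0299% higher, 0% lower), and 0 of 40 had an unadjusted p under 0.05 (2.03% higher and 1.03% lower among all genes). With the replicate number as a block 1 of 40, Srebf2, was lower at that threshold, beside 2.26% of all genes. The fitted interaction was above 0 for 17 of 40 (39.6% of all genes). Acsl4 had an interaction of -1.36 on the log2 scale (SE 0.72, unadjusted p = 0.0937), and its WT adipose libraries were the ones above the other 6. For Acadvl, Acaa2, Plin2 and Plin3 the interaction was -0.57 (SE 0.54), 0.39 (SE 0.43), 0.12 (SE 1.34) and -0.43 (SE 0.58). A p that misses the threshold with these standard errors does not show that the genotypes act alike.

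Further genes of the same pathways were read from a wider list of 93, of which 80 were tested. Averaged over genotypes, 4 of the 80 were higher in adipose tissue and 0 lower by limma (2.33% and 0.725% of all genes): Pparg, Hilpda, Agpat2 and Sc5d. With the replicate number as a block Acss2 (adjusted p = 0.0361), Elovl5 (0.0498) and Fabp4 (0.0488) were called as well. Fabp4 is also 1 of the 8 adipocyte markers. Its adipose minus spleen difference on the log2 scale was 1.97 in WT and 3.92 in KO in experiment 2. In experiment 3 it was 9.36 and 11.9. The part of adipocyte RNA in the Fabp4 values was not tested. None of Pparg, Hilpda, Agpat2 and Sc5d was called with no filter on low values either. Pparg was at 25.6 and 154 TPM in the WT adipose libraries, 107 and 112 in the KO adipose libraries, 4.26 and 2.70 in the WT spleen libraries and 0.545 and 8.77 in the KO spleen libraries (4.35 on the log2 scale, SE 0.70, adjusted p = 0.0223). KO adipose 2, whose adipocyte markers summed to 65.4 TPM, was thus level with KO adipose 3. The part of adipocyte RNA in these values was not tested. Without both adipose libraries of experiment 3 the difference for Pparg was 3.70. Its adjusted p was 0.0508 on leaving out WT adipose 3, 0.0864 on dropping WT spleen 2, 0.102 on dropping WT spleen 3 and 0.0782 on dropping KO spleen 2.

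Hilpda, whose product binds droplets and inhibits adipose triglyceride lipase, was at 238 to 729.5 TPM in adipose tissue and 62.0 to 98.0 in spleen (2.31 on the log2 scale, SE 0.37, adjusted p = 0.0218). Its adjusted p was 0.0822 on leaving out WT spleen 2, 0.104 on dropping WT spleen 3 and 0.0926 on dropping KO spleen 2. Agpat2, an enzyme of triglyceride and phospholipid synthesis, was at 25.0 to 41.1 TPM in adipose tissue and 5.67 to 14.0 in spleen (1.71, SE 0.35, adjusted p = 0.0453). The call of Agpat2 ended without any of 6 libraries, namely KO adipose 3 (0.0642), KO spleen 2 (0.136), WT spleen 3 (0.150), WT spleen 2 (0.182), WT adipose 3 (0.119) and WT adipose 2 (0.107). Sc5d, a late sterol desaturase, was at 95.8 to 228 TPM in adipose tissue and 46.9 to 75.1 in spleen (1.52, SE 0.31, adjusted p = 0.0424). The call of Sc5d ended when any of WT adipose 2 (0.0813), WT adipose 3 (0.131), KO spleen 3 (0.0552), KO spleen 2 (0.155), WT spleen 3 (0.162) or WT spleen 2 (0.145) was left out. It also ended with a pseudocount of 5 (0.0510) and after quantile normalization (0.0523), and that of Agpat2 ended with a pseudocount of 0.1 (0.0508) or 5 (0.0510). Of 16 alternative settings, 10 ended the call of Agpat2 and 10 that of Sc5d, and not all of these are listed here. In the comparisons within 1 genotype or within 1 tissue, 0 of the 80 genes passed by limma, although Pparg passed between tissues in KO with the replicate number as a block (adjusted p = 0.0478).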

How the data were processed

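The authors deposited 1 table of TPM per gene and library, a unit read from the values, since each of the 8 columns sums to 1000000. The build used for mapping was mm9 per the submitters' processing notes, and SMARTer v4 and Nextera XT kits were used per the labels' protocols. Which aligner, counter and annotation were used is not stated, nor is the depth. The 6 contrasts came from 1 limma fit (3.58.1, in R 4.3.3) of log2(TPM + 1) over the 8 libraries, with a trend in the variance, 4 groups and 4 residual degrees of freedom. A gene was tested if 2 or more libraries reached 1 TPM (13376 genes), and p-values were adjusted within each contrast over these genes (Benjamini-Hochberg, threshold 0.05). The log2(TPM + 1) scale understates changes of low genes. No label says that libraries came from different mice, so the p-values reflect only how these libraries vary. The number of a library is called an experiment per the file headers. It was taken as a pairing in the differences within an experiment and in the replicate block, but not in the fit of the 6 contrasts. The difference between experiments correlated across genes with r from 0.128 to 0.382 over pairs of groups. Between adipose tissue and spleen r was 0.152 in WT and 0.185 in KO. Between WT and KO it was 0.351 in adipose tissue and 0.382 in spleen. The 40 genes, roles, wider list and alternatives were chosen with earlier results of these data known. All 40 genes could be named, with full statistics for those past the threshold and up to 3 per role with the largest fold and no overlap between groups. Of the wider list, those past the threshold are named. Genes given outside this rule were picked with their values in view. The fit was tested on simulated data. Promoters came from RefSeq on GRCm38.p6, matched by symbol.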

Additional observations from a re-analysis of the deposited data

How the results depend on the processing

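For adipose tissue against spleen averaged over genotypes, the 4 genes called became 0 with no filter on low values (0.0896% of all genes called), 2 after quantile normalization (Acadvl and Acaa2, 4.56%) and 7 with the replicate block, in which pairs shared their experiment (6.62%). They became 3 with a pseudocount of 0.1 (2.44%) or 5 (2.12%), without Plin2, and 6 with a filter at 5 TPM, which added Acadl and Cpt1a (4.39%). They ranged from 0 to 7 when 1 library at a time was left out (0.196% to 8.97%), and were 0 without both KO libraries of experiment 2 (3.27%). With 1 library left out the filter was applied anew; with the gene set held, the count was 3 in place of 7 without KO adipose 2 (6.81% of all genes called) and 0 in place of 4 without KO adipose 3 (1.75%). Quantile normalization moved the median of all genes in that contrast from 0.24 to -0.05 and the split of calls over all genes from 312 higher and 97 lower to 343 and 267. In WT the count of 0 became 1 when only the groups compared were fitted (Acadvl), 1 without both KO libraries of experiment 2 (Acadvl, an alternative chosen after seeing the data), and 0 to 1 with 1 library left out (Plin2, without WT adipose 2). In KO it was 0 to 1 with 1 library left out (Plin2, without WT adipose 2 or 3; Abca1, without KO adipose 2), and with the gene set held both Plin2 calls ended. The replicate block changed no other count of the 40 genes at an adjusted p of 0.05. At an unadjusted p under 0.05 it moved the genes higher in adipose tissue from 11 to 15 in WT (14.9% of all genes), from 8 to 11 in KO (11.5%) and from 16 to 19 averaged (21.5%). Quantile normalization lowered the storage median to 0.60 in WT and 0.88 averaged, and the beta-oxidation median to 0.28 in WT, 0.46 in KO and 0.28 averaged. With 1 library left out, the storage median ranged from -0.86 to 0.54 for KO against WT in adipose tissue, from 0.95 to 1.97 between tissues in KO and from 0.89 to 1.61 averaged, and the beta-oxidation median from 0.52 to 1.16 in KO. The sterol median then ranged from -0.78 to 0.09 for KO against WT in adipose tissue. Between tissues the sterol median ranged from 0.37 to 1.28 in WT, 0.19 to 0.97 in KO and 0.37 to 0.95 averaged. The cause of these shifts was not tested. The counts for KO against WT in either tissue and for the interaction stayed at 0 under each alternative run. Unknown depth limits the low genes, such as Acaca, Lipe and Abca1, for which no counting error can be given. With 1 library left out of a group of 2, the remaining one is assumed to vary like the other groups.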
